A study of Mus musculus with 8 samples.

Results

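The genes described here are 9 transcripts linked to FoxO transcription factors and to growth factor or nutrient withdrawal: Fbxo32, Ccng2, Gabarapl1, Hbp1, Sesn1, Klhl24, Depp1, Tsc22d3 and Glul. They were taken by gene symbol from the array annotation, which gave 16 probes for the 9 genes, of 25697 probes and 16593 named genes in all. The 9 were chosen by their measured expression in these same arrays, since they were proposed after their levels below control were known. Their levels and fold changes are therefore given as a description. Their p-values are not printed, but members are called at a threshold on the adjusted p, and those calls are part of the description.

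The RNA was that of MLP-29, a line of mouse liver progenitor cells grown in 10% serum, after progressive starvation over 1 week. The cells then received HGF (hepatocyte growth factor, the ligand of the Met receptor) for 1, 6 or 24 h, or control medium, in every case with 2% bovine serum. The control medium group is 1 group without a time of its own in the labels. An effect of the time spent in the medium and an effect of HGF can therefore not be told apart. Each of the 4 groups held 2 arrays, replicates a and b, from a time course that was carried out in duplicate with all cultures of a time course lysed together.

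FoxO proteins are forkhead transcription factors that act as a sensor of growth factor supply. When receptor tyrosine kinases activate PI3K and the kinase Akt, Akt phosphorylates FoxO proteins and they leave the nucleus, and when the signal is withdrawn they return to it and activate genes of cell cycle arrest, autophagy, protein degradation and stress resistance. Met, the receptor of HGF, is one of the receptors that can activate PI3K. FoxO phosphorylation and location were not measured in this series, and the link of the 9 genes to FoxO is background knowledge of other cells.

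The promoters of the members were read for motifs because FoxO proteins bind short forkhead elements. RefSeq promoters (GRCm38.p6) were matched for 7 of the 9 members, with 10 promoters in all, and Fbxo32 and Klhl24 were not matched. The 250 bases before the start site were searched on both strands. The forkhead element in the exact letters GTAAACA was present in 1 member promoter, that of Hbp1, and in 3.17% of 32841 promoters of the same length. Forkhead sites in other letters were not searched for, so the other members cannot be said to lack one. The core of the insulin response element, CAAAACA, was present in 1, that of Ccng2, and in 5.56% of all. The palindromic element of the glucocorticoid receptor, searched because Tsc22d3 is a glucocorticoid target, was present in 0 of the 10 and in 0.387% of all. These 2 windows are shown with 25 bases on either side of the match, cut at the start site, with the motif in capitals. In Ccng2 (chr5:93267532-93267572, plus strand) the element begins 16 bases upstream of the start, and in Hbp1 (chr12:31950363-31950419, minus strand) it begins 149 bases upstream.
Ccng2: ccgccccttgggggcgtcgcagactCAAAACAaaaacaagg
Hbp1: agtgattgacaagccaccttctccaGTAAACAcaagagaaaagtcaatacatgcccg
A match in these letters is a description of the sequence. Binding was not measured, and enhancers and introns were not searched as such. The Hbp1 window lies inside the interval of the gene, so the start site it is counted from is an internal one. Promoter 2 of Sesn1 and promoters 1 and 3 of Tsc22d3 also lie inside their genes.

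Signals are given on the log2 scale after background correction and quantile normalization, so that 1 unit is a 2-fold step, and each gene is represented by its brightest probe. A probe is called detected on an array where its detection p-value, which compares it with the negative control beads, was under 0.05. Between 11569 and 11893 probes (45.0% to 46.3%) were detected per array, and the correlation across genes between the replicates of each group was 0.990 to 0.993. Of the markers of liver progenitor and biliary epithelium, 6 of the 7 with a probe (Krt8, Krt19, Krt7, Cdh1, Sox9 and Cd24a) were detected on all 8 arrays, and Prom1 on none. The hepatocyte genes Alb, Afp, Apoa1, Cyp3a11 and Tat, the 4 haematopoietic markers with a probe, and the endothelial genes Pecam1, Cdh5, Kdr and Tek were detected on 0 arrays, as were the stellate and fibroblast genes Des, Pdgfrb, Col1a1, Col3a1 and Lrat. The hepatocyte gene Hnf4a was detected on all 8 arrays, and Ttr, Stab2 and Acta2 on some. The summed signal of the progenitor and biliary list was 65328 to 70018 at 1 h, 61638 to 66904 at 6 h and 63828 to 66455 at 24 h in HGF, against 68294 to 75452 in control cells. That of the hepatocyte list was 2717 to 2877 at 1 h, 2497 to 2557 at 6 h and 2087 to 2467 at 24 h, against 2838 to 3032 in control cells. Both sums lay below control without overlap at 6 h and 24 h, and their part in the results was not tested. Since 5 of the 7 hepatocyte genes were detected on no array, that sum is not a measure of hepatocyte content. The sums of the haematopoietic, endothelial and stellate lists overlapped control at 6 h and 24 h. In whole-culture RNA, fewer cells of a type and less RNA per cell cannot be told apart.

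All 9 genes passed the detection filter and were among the 8183 genes tested. A gene is called where limma gave a Benjamini-Hochberg adjusted p under 0.05 over all of them. After 1 h in HGF, 3 of the 9 (Fbxo32, Ccng2 and Sesn1) were called lower and 0 higher, where 2.16% of all genes were called lower and 2.62% higher. After 6 h all 9 were called lower, where 12.1% of all genes were called lower and 9.25% higher. With median scaling of the arrays in place of quantile normalization, the 992 lower and 757 higher genes at 6 h became 963 and 322. After 24 h 0 of the 9 were called, where 0% of all genes were called in either direction. The median log2 change of the members against control was -0.73 at 1 h, -1.23 at 6 h and -0.48 at 24 h, and over all genes it was -0.05, -0.03 and -0.02. Nothing is read from these shares, since the same arrays chose the genes.

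**Figure D1:**
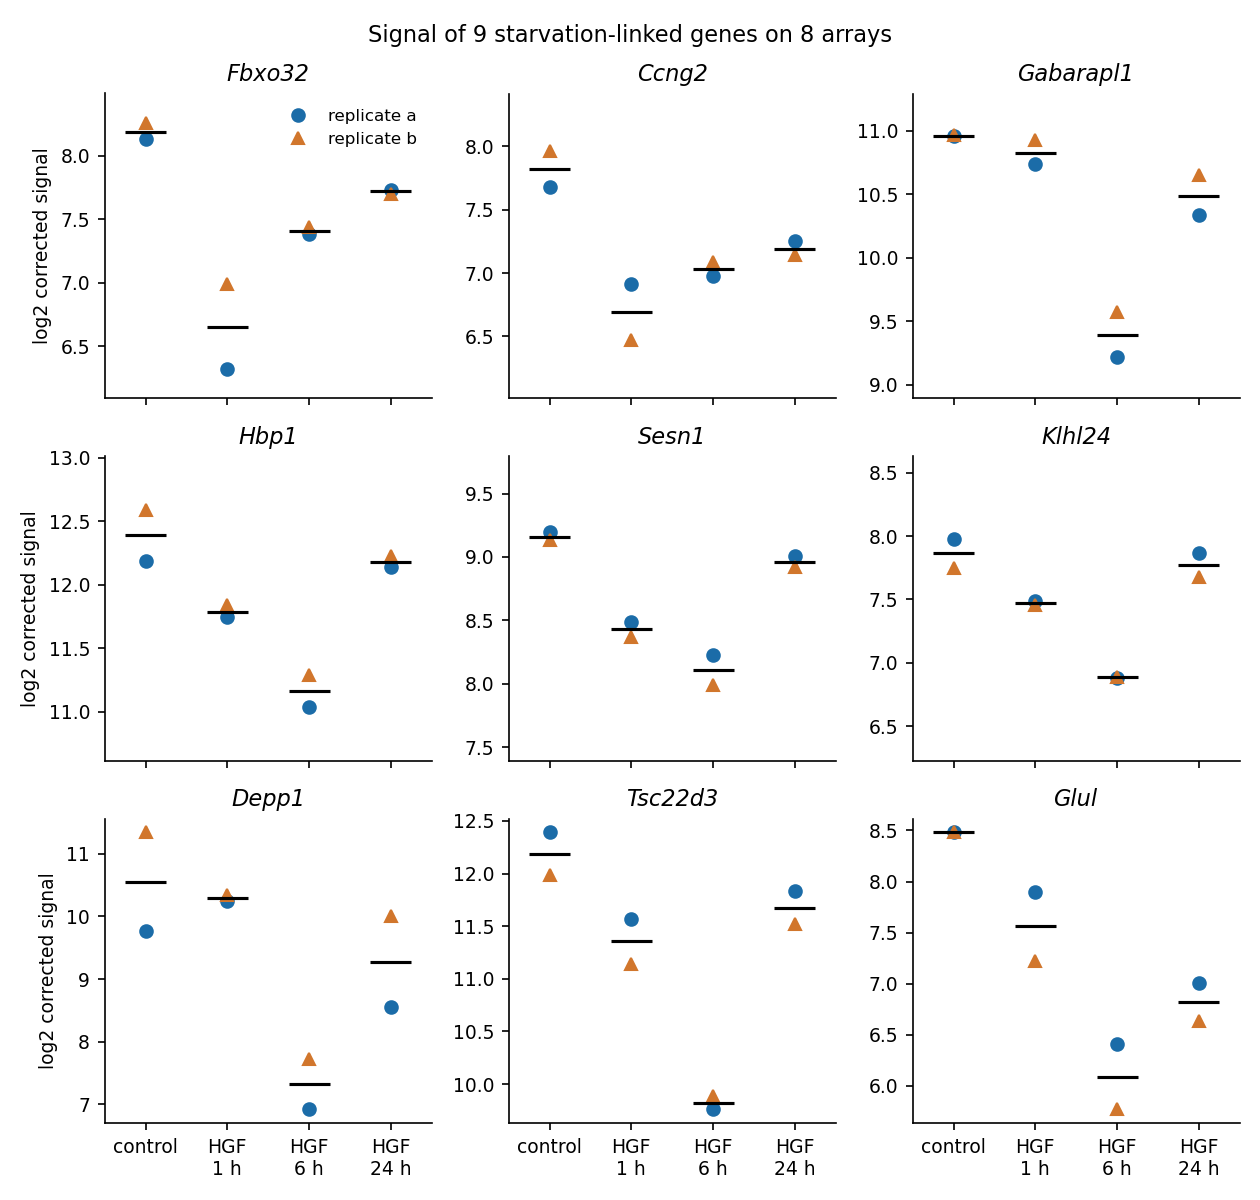
Normalized log2 signal of the 9 genes on each array, 1 panel per gene, by group from control through HGF 1, 6 and 24 h. Points are single arrays (circles for replicate a, triangles for replicate b) and the bar is the group mean. All 9 genes lie below both control arrays at 6 h, and Fbxo32 and Ccng2 have their lowest mean at 1 h.

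Fbxo32 and Ccng2 had their lowest signal at the earliest time. Fbxo32 encodes atrogin-1, the substrate-binding subunit of an SCF ubiquitin ligase best known from wasting muscle. Its log2 signal was 8.13 and 8.26 in control cells, 6.32 and 6.99 at 1 h, 7.38 and 7.44 at 6 h, and 7.73 and 7.70 at 24 h in HGF. Every HGF array lay below both control arrays, and the 4 groups did not overlap, with 1 h lowest. The log2 change was -1.54 ± 0.20 at 1 h (SE of the fit, 2 arrays per group), -0.79 ± 0.20 at 6 h and -0.48 ± 0.20 at 24 h, and the first of these corresponds to a 2.91-fold lower signal. From 1 h to 24 h the signal was higher by 1.06 ± 0.20. The call at 1 h was lost without control replicate a (-1.87 to -1.21 over the fits that each leave out 1 array) and with the mean of its probes (-1.09). The call at 6 h held in 7 of 15 alternatives and was lost with the mean of probes, without a detection filter and without any single 6 h, 24 h or control array.

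Ccng2 encodes cyclin G2, an unconventional cyclin that goes with cell cycle arrest and not with cell cycle progression. Its signal was 7.68 and 7.96 in control cells, 6.91 and 6.47 at 1 h, 6.98 and 7.09 at 6 h, and 7.25 and 7.14 at 24 h. All HGF arrays were below both control arrays, and each of the 1 h arrays was below each of the 6 h and 24 h arrays. Against control its log2 change was -1.13 ± 0.18, -0.79 ± 0.18 and -0.63 ± 0.18 at the 3 times. Between 1 h and 6 h it differed by 0.34 ± 0.18, which was not called. The call at 1 h was lost without HGF 1 h replicate b or either control array, and that at 6 h without either 6 h array or control replicate b.

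The genes of growth restraint, Hbp1 and Sesn1, were lower at 1 h and lowest at 6 h. Hbp1 is an HMG-box transcription factor that represses genes of the cell cycle and of Wnt signalling. Hbp1 had 12.19 and 12.59 in control cells, 11.75 and 11.84 at 1 h, 11.04 and 11.29 at 6 h, and 12.14 and 12.23 at 24 h. The 1 h and 6 h arrays lay below control, whereas the 24 h arrays overlapped it. The log2 change was -0.60 ± 0.17 at 1 h, which was called only with the replicate block, without background correction and in the authors' normalized values. It was -1.23 ± 0.17 at 6 h, called under all alternatives run, and -0.21 ± 0.17 at 24 h.

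Sesn1 encodes sestrin 1, a stress-induced inhibitor of the growth kinase complex mTORC1. Its signal was 9.20 and 9.13 in control cells, 8.49 and 8.37 at 1 h, 8.23 and 7.99 at 6 h, and 9.01 and 8.92 at 24 h. All HGF arrays were below both control arrays, and at 24 h the gap was small. For Sesn1 the log2 change was -0.73 ± 0.13 at 1 h, -1.05 ± 0.13 at 6 h and -0.20 ± 0.13 at 24 h. The call at 1 h was lost with median scaling and without any single 1 h or control array, and the call at 6 h held throughout.

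Gabarapl1 and Depp1, the 2 members tied to autophagy, were lower at 6 h. At 1 h Gabarapl1 differed little from control, whereas the 2 replicates of Depp1 went opposite ways. Gabarapl1 is an Atg8-family protein that is conjugated to lipid on the growing autophagosome membrane. Its signal was 10.96 and 10.97 in control cells, 10.74 and 10.93 at 1 h, 9.22 and 9.57 at 6 h, and 10.34 and 10.65 at 24 h. The 1 h arrays lay just under control and the 6 h arrays far below every other array. The log2 change was -0.13 ± 0.17 at 1 h, -1.57 ± 0.17 at 6 h (2.97-fold lower) and -0.47 ± 0.17 at 24 h, and between 1 h and 6 h it was -1.44 ± 0.17.

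Depp1 encodes a small protein, first described in progesterone-treated decidua, that FoxO factors induce in several human cell types. It had the largest 6 h change of the 9 and the widest spread. Its signal was 9.76 and 11.34 in control cells (SD 1.1), 10.24 and 10.34 at 1 h, 6.92 and 7.73 at 6 h, and 8.55 and 10.00 at 24 h (SD 1.0). The 6 h arrays were below all others, whereas the 1 h and 24 h arrays overlapped control. In raw intensity the control arrays already differed, at 1093.2 and 2491.2. The log2 change was -0.26 ± 0.60 at 1 h, -3.23 ± 0.60 at 6 h (9.37-fold lower) and -1.28 ± 0.60 at 24 h. Taken within each replicate letter, the 6 h change was -2.84 in a and -3.62 in b, and the 24 h change was -1.21 and -1.34, while at 1 h it was 0.48 in a and -1.0 in b. The 6 h change ran from -4.02 to -2.44 when 1 array was left out, and its call was lost without HGF 6 h replicate a.

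Klhl24 encodes a Kelch-family substrate adaptor of a Cul3 ubiquitin ligase, which in human skin controls the turnover of keratin 14. Its signal was 7.98 and 7.75 in control cells, 7.49 and 7.46 at 1 h, 6.88 and 6.89 at 6 h, and 7.87 and 7.68 at 24 h. The 6 h arrays were the lowest and nearly identical, and the 24 h arrays overlapped control. Its log2 change was -0.40 ± 0.13, -0.98 ± 0.13 and -0.10 ± 0.13 at the 3 times.

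Tsc22d3 encodes GILZ, a leucine zipper protein induced by glucocorticoids and by FoxO3. Its signal was 12.39 and 11.99 in control cells, 11.57 and 11.14 at 1 h, 9.76 and 9.89 at 6 h, and 11.83 and 11.52 at 24 h. Every HGF array lay below both control arrays, with the 6 h arrays over 1 unit below all others. The log2 change was -0.84 ± 0.20 at 1 h, -2.37 ± 0.20 at 6 h (5.16-fold lower) and -0.52 ± 0.20 at 24 h. The 6 h call held under all alternatives run, and the 1 h change was called in 5 of 16, the replicate block among them.

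Glul encodes glutamine synthetase, which makes glutamine from glutamate and ammonia. Its signal was 8.48 on both control arrays, 7.90 and 7.22 at 1 h, 6.41 and 5.77 at 6 h, and 7.01 and 6.63 at 24 h. The groups followed each other without overlap, and the 24 h arrays stayed below the 1 h arrays. At 6 h it was detected on 1 of 2 arrays. For Glul the log2 change was -0.92 ± 0.28 at 1 h, -2.39 ± 0.28 at 6 h (5.25-fold lower) and -1.66 ± 0.28 at 24 h (3.16-fold lower). Glul was the 1 member called lower at 24 h with the replicate block, where 3.29% of all genes were called lower. It was called there too without background correction and in the authors' normalized values, and in 0 of the 8 fits that leave out 1 array.

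**Figure D2:**
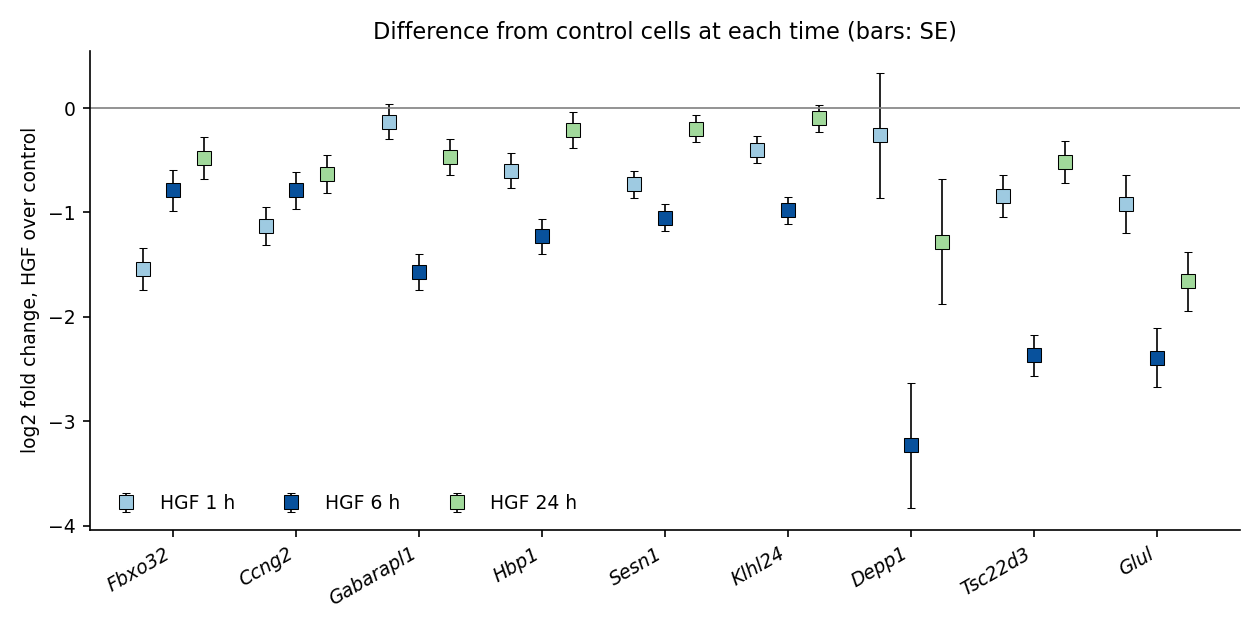
Log2 change of each gene against control at HGF 1, 6 and 24 h, with bars for 1 SE of the fit over 8 arrays. Fbxo32 and Ccng2 lie farthest below 0 at 1 h, the other 7 at 6 h, and Depp1 has the widest bars.

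The order of the times thus differed among the members: Fbxo32 and Ccng2 had their lowest group mean at 1 h, and the other 7 at 6 h. Between 1 h and 6 h, Fbxo32 was called higher (0.75 ± 0.20) and 6 genes were called lower (Gabarapl1, Hbp1, Klhl24, Depp1, Tsc22d3 and Glul), where 8.32% of all genes were called higher and 9.03% lower. These 7 calls came to 2 without HGF 1 h replicate a, 4 without HGF 1 h replicate b and 3 without either 6 h array. Gabarapl1 and Tsc22d3 were called lower in all alternatives run, whereas the rise of Fbxo32 between these times was called in 5 of 15. Ccng2 and Sesn1 were not called between 1 h and 6 h, in the direction of 0.34 ± 0.18 and -0.32 ± 0.13.

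Between 6 h and 24 h all 9 changes were above 0, from 0.16 to 1.95, and 5 genes were called higher (Gabarapl1, Hbp1, Sesn1, Klhl24 and Tsc22d3) and 0 lower, where 6.92% of all genes were called higher and 6.31% lower. The log2 changes of the 5 were 1.10 ± 0.17, 1.02 ± 0.17, 0.85 ± 0.13, 0.89 ± 0.13 and 1.85 ± 0.20, in that order. With the replicate block Depp1 (1.95 ± 0.60 without it) and Glul (0.73 ± 0.28 without it) were called as well, for 7 in all, where 9.69% of all genes were called higher. The count was 3 without HGF 24 h replicate b. These changes share their 6 h arrays with the comparison of 6 h with control, so they are not independent of it.

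Compared directly, the sign of the difference between 24 h and 1 h cells varied from gene to gene. Fbxo32 (1.06 ± 0.20) and Sesn1 (0.53 ± 0.13) were called higher at 24 h, where 3.75% of all genes were called higher and 4.81% lower, and Glul had -0.74 ± 0.28. Glul was called lower there with the replicate block only, where 7.75% of all genes were called lower. These 2 calls came to 0 without HGF 1 h replicate a or either 24 h array and to 1 without HGF 1 h replicate b or either control array.

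At 1 h the fit with the replicate letter as a block called 6 members lower, adding Hbp1, Tsc22d3 and Glul to the 3 called without it, where 4.44% of all genes were called lower. The count at 1 h was 0 without control replicate a, and 1 without control replicate b or HGF 1 h replicate b. The count at 6 h was between 6 and 9 when 1 array was left out.

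The members with more than 1 probe gave a check within the array. Of the 16 probes, 9 were detected on all 8 arrays and 2 on none. Hbp1 had another probe detected on all arrays, with log2 differences from control of -0.30 at 1 h, -1.18 at 6 h and 0.04 at 24 h, close to those of its brighter probe at 6 h. A dim Fbxo32 probe, detected on 6 of 8 arrays, differed by -0.63, -0.24 and 0.10, and its HGF and control arrays overlapped at every time, unlike those of the brighter probe. With the mean of the kept Fbxo32 probes, the change was -1.09 at 1 h and -0.51 at 6 h, and neither was called.

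The probes of Tsc22d3 disagreed at 1 h and 24 h. The dimmer probe is annotated to another RefSeq transcript of the gene, and its log2 signal was 7.07 and 7.49 in control cells, 7.49 and 7.37 at 1 h, 5.53 and 5.88 at 6 h, and 7.69 and 7.95 at 24 h. At 6 h it was not detected on either array, and the signal was at least 2.58-fold lower than in control cells, the bound being set by the lowest detected signals of those arrays. At 24 h both arrays were above both control arrays, by 0.54 on average, where the brighter probe was below control by 0.52. A second Klhl24 probe was likewise not detected on either 6 h array, where its signal was at least 1.46-fold lower than in control cells. At 1 h this probe overlapped control (-0.21 on average), where the brighter Klhl24 probe lay below it. At 24 h both its arrays lay below control (-0.50 on average, detected on 1 of 2), where the brighter probe overlapped control. The remaining probes, of Fbxo32, Hbp1 and Sesn1, were detected on at most 1 array.

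**Figure D3:**
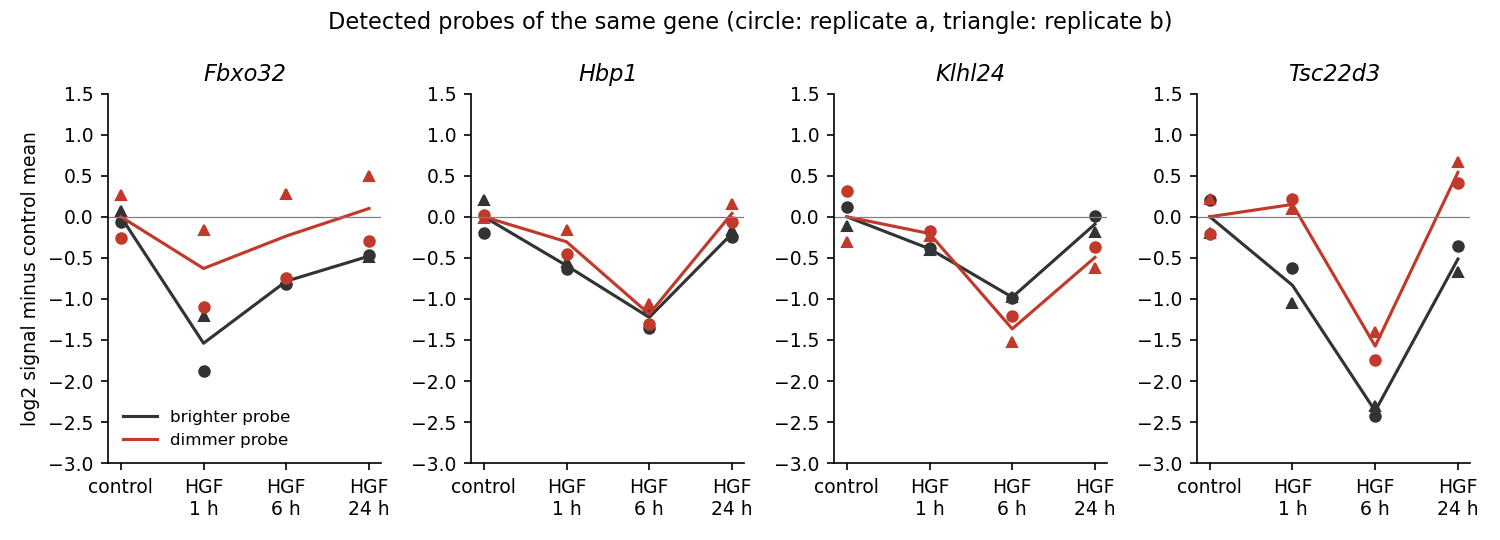
Log2 signal minus the mean of the control arrays, for the members with more than 1 kept probe, by group from control through HGF 1, 6 and 24 h. Circles are replicate a, triangles replicate b and lines group means, in black for the brighter and red for the dimmer probe. Both Hbp1 probes have their lowest signal at 6 h, and the dimmer Tsc22d3 probe is above control at 24 h where the brighter one is below it.

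Over the 8 arrays the members did not all follow each other. As a description over 8 arrays that share 4 conditions, the correlation of each gene with the mean of the other 8 was 0.942 for Hbp1, 0.931 for Tsc22d3, 0.901 for Klhl24, 0.880 for Gabarapl1, 0.874 for Sesn1, 0.820 for Glul and 0.760 for Depp1. It was 0.567 for Ccng2 and 0.353 for Fbxo32, the 2 genes lowest at 1 h. Among pairs, Klhl24 with Tsc22d3 (0.981), Gabarapl1 with Depp1 (0.943) and Sesn1 with Klhl24 (0.935) were highest, and Fbxo32 with Depp1 (0.0855) was lowest.

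Other genes had a similar time pattern. Among 964 genes outside the members whose group means span at least 1 log2 unit, the 10 most like the mean of the members over the 8 arrays were Wdfy1 (r = 0.976), Bcl9l, Melk, D6Wsu163e, Mras, Gpr146, Phka2, Ak1, Gnpda1 and Vegfb (r = 0.951). For single members the nearest gene was Plin4 for Gabarapl1 (0.994), Aspm for Sesn1 (0.993), Phka2 for Tsc22d3 (0.993), Haus8 for Klhl24 (0.990), Map1lc3b for Depp1 (0.982), Cdkn2b for Hbp1 (0.979), Rtn4rl1 for Glul (0.971), Zfp61 for Ccng2 (0.964) and Anks6 for Fbxo32 (0.912). Plin4, which encodes a lipid droplet coat protein, had log2 changes of -0.04, -2.95 and -0.86 at 1, 6 and 24 h. The likeness holds for these arrays and says nothing of shared control.

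The FoxO factors themselves were measured to a limited extent. Foxo1 was detected on all 8 arrays, with 9.57 and 9.59 in control cells, 9.15 and 8.84 at 1 h, 9.73 and 9.59 at 6 h, and 9.38 and 9.44 at 24 h. Its change at 1 h, -0.58 ± 0.14, missed the threshold in limma (adjusted p = 0.0611, and 0.0390 with the replicate block), and at 6 h it was 0.08 ± 0.14 (adjusted p = 0.707). Between 1 h and 6 h Foxo1 was called higher (0.66 ± 0.14, limma adjusted p = 0.0187, and 0.0132 with the block). For that comparison 8.32% of all genes were called higher, and the Foxo1 call was not refitted with arrays left out. The probes of Foxo3 and Foxo4 were detected on 0 arrays, with raw intensities of 67.9 to 107.5 and 86.7 to 107.6, so that their level was not detectable here. Foxo6 had 3 probes, of which 1 was detected on 2 of 8 arrays and the others on 0, and it did not pass the filter. Of all genes, 2.62% were called higher and 2.16% lower at 1 h, and 9.25% and 12.1% at 6 h. Of the 10 measured FoxO factors and upstream regulators, 1 (10%) rose at 1 h and at 6 h and 0 fell. This was Sgk1, a kinase related to Akt that phosphorylates FoxO3, with 1.02 ± 0.14 at 1 h (adjusted p = 0.00776) and 0.65 ± 0.14 at 6 h (adjusted p = 0.0158). Its 1 h call was lost without HGF 1 h replicate b or control replicate a, and its 6 h call without HGF 6 h replicate a or control replicate b, and with median scaling. In the fit with the block Foxo1 was called lower at 1 h, and the kinase Akt1 higher at 6 h (0.92 ± 0.30, adjusted p = 0.0650 without the block and 0.0320 with it). Akt1 was detected on 1 of 2 control arrays and on 2 of 2 arrays at 6 h.

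Of 79 other measured genes in 7 pathway lists, 6 rose and 0 fell at 1 h (7.59% of the 79, where 2.62% of all genes were called higher). At 6 h 4 rose (5.06%, where 9.25% of all genes were called higher) and 18 fell (22.8%, where 12.1% of all genes were called lower), and 0 were called at 24 h. Their median log2 change was -0.03, -0.21 and 0.00. The lists were chosen with earlier results of these data known, so nothing is read from these shares. The p-values of list genes, those of the FoxO regulators included, are given as a description. The 6 calls at 1 h came to 1 without control replicate a and 2 without HGF 1 h replicate b, and the 22 at 6 h to 8 without control replicate b and 14 without HGF 6 h replicate b. With the replicate block 9 rose and 2 fell at 1 h, and 2 rose and 1 fell at 24 h.

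Among other FoxO target genes, more were called lower than higher at 6 h. Of 21 measured, 10 fell (47.6%, where 12.1% of all genes were called lower). The 2 that rose are 9.52%, near the 9.25% of all genes called higher. Their median log2 change was -0.51 against -0.03 over all genes. At 1 h 1 rose (4.76%, where 2.62% of all genes were called higher) and 0 fell, with a median of -0.04. Ppargc1a, the coactivator PGC-1alpha of mitochondrial biogenesis and fasting metabolism, fell by 1.55 ± 0.23 at 6 h (limma adjusted p = 0.00483). Map1lc3b, the autophagosome protein LC3B and a relative of Gabarapl1, fell by 1.31 ± 0.20 (adjusted p = 0.00484). Gadd45a, a stress gene of growth arrest and DNA repair named here after its values were seen, had the largest fall of the list, -1.98 ± 0.32 (adjusted p = 0.00673). The 2 genes that rose were Bcl2l11, which encodes the pro-apoptotic protein BIM, with 0.87 ± 0.14 (adjusted p = 0.00604), and Prdx3, a mitochondrial peroxidase, with 0.73 ± 0.12 (adjusted p = 0.00664). These 5 calls at 6 h held under all alternatives run. Bcl2l11 was also the 1 gene that rose at 1 h, by 0.90 ± 0.14 (adjusted p = 0.0126), a call lost without HGF 1 h replicate b or either control array. With the replicate block 2 genes of the list rose at 1 h, 13 fell and 2 rose at 6 h, and 1 fell at 24 h. The block added calls of the apoptosis gene Pmaip1 (0.52 ± 0.16 at 1 h, -0.51 ± 0.16 at 6 h). It also added those of the transcription factor Klf2 (-0.94 ± 0.46 at 6 h, -1.64 ± 0.46 at 24 h) and the antiproliferative gene Btg1 (-0.42 ± 0.13 at 6 h). In limma their adjusted p was 0.0176 to 0.0407 with the block and 0.0532 to 0.181 without it. These SEs are of the fit without the block. At 24 h Klf2 was detected on 1 of 2 arrays.

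**Figure D4:**
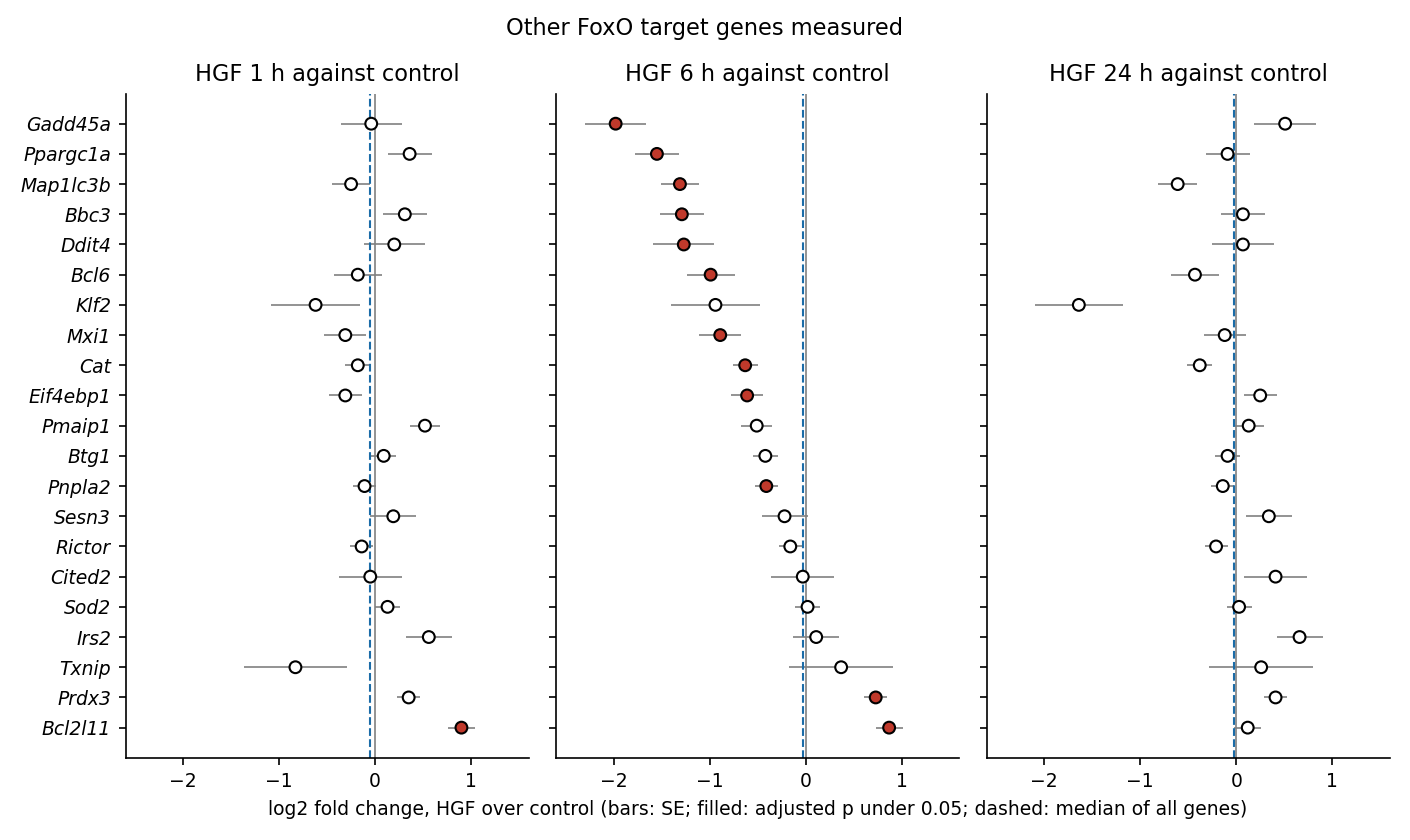
Log2 change against control of the measured other FoxO target genes at HGF 1, 6 and 24 h, with bars for 1 SE, filled points for an adjusted p under 0.05 and a dashed line at the median of all genes. At 6 h Gadd45a, Ppargc1a, Map1lc3b and Bbc3 lie at or below -1.29, and Bcl2l11 and Prdx3 lie above 0.

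At 1 h 0 of 24 measured autophagy genes were called, and their medians at 6 h and 1 h were -0.25 and -0.04. At 6 h 5 fell (20.8%, where 12.1% of all genes were called lower) and 0 rose. Beside Map1lc3b these were the initiating kinase Ulk2 (-0.55 ± 0.14, limma adjusted p = 0.0273), the lipid kinase Pik3c3 (-0.48 ± 0.12, adjusted p = 0.0310), the mitophagy receptor Bnip3l (-0.58 ± 0.16, adjusted p = 0.0353) and the cargo receptor Sqstm1 (-0.78 ± 0.22, adjusted p = 0.0396), the last named after its values were seen. Leaving out 1 array kept the call of Ulk2 in 5 of 8 fits, of Bnip3l and Sqstm1 in 3 and of Pik3c3 in 2. It was lost for all 4 genes without control replicate b, for Ulk2, Pik3c3 and Sqstm1 without control replicate a, for Ulk2, Pik3c3 and Bnip3l without HGF 6 h replicate b, and for Pik3c3, Bnip3l and Sqstm1 without HGF 6 h replicate a. It was lost without either 24 h array for Pik3c3, and without either 1 h array for Bnip3l and Sqstm1. It was lost for Ulk2 with the mean of probes, for Pik3c3 with median scaling, and for Bnip3l and Sqstm1 without a detection filter. In the blocked fit Sqstm1 was called higher at 1 h (0.61 ± 0.22, adjusted p = 0.174 without the block and 0.0314 with it), opposite to its 6 h change, and the kinase Ulk1 was called lower at 6 h (-0.78 ± 0.25, adjusted p = 0.0586 and 0.0325).

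Of the 8 measured family relatives of the members, 1 fell and 0 rose at 6 h, and 0 were called at 1 h. The 1 lower at 6 h is 12.5% of the 8, near the 12.1% of all genes called lower. The gene that fell was Ccng1, a p53-induced relative of Ccng2, by 0.54 ± 0.12 (limma adjusted p = 0.0169), a call lost without either control array or HGF 6 h replicate b, and with median scaling. Sesn2 had -1.13 ± 0.37 at 6 h (adjusted p = 0.0636, and 0.0358 with the block) and Sesn3 -0.22 ± 0.24 (adjusted p = 0.551). Gabarap had -0.39 ± 0.15 (adjusted p = 0.101), and Gabarapl2 was not detected on either 6 h array. Tsc22d1 had a change of 1.54 ± 0.63 at 1 h, 1.36 ± 0.63 at 6 h and 1.07 ± 0.63 at 24 h. It was not called without the block (adjusted p = 0.226, 0.161 and 0.382) and was called higher with it (adjusted p = 0.00441, 0.00299 and 0.0314). Tsc22d4 had -0.24 ± 0.15 and Fbxo25, a relative of Fbxo32, -0.27 ± 0.12 at 6 h.

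Glucocorticoid target genes were given because Tsc22d3 is one of them. Of 9 others measured, 5 rose (55.6%, where 2.62% of all genes were called higher) and 0 fell at 1 h, with a median of 1.00. Fkbp5 (-0.26 ± 0.18) and the receptor gene Nr3c1 (-0.33 ± 0.33) were among those not called. Tsc22d3 had -0.84 ± 0.20 at 1 h, which was not called, and its dimmer probe 0.15. The 5 were the phosphatase Dusp1 (1.9 ± 0.19, limma adjusted p = 0.00201), Sgk1, the clock gene Per1 (1.62 ± 0.23, adjusted p = 0.00874), the metallothionein Mt2 (1.69 ± 0.30, adjusted p = 0.0218) and the transcription factor Klf9 (1.00 ± 0.22, adjusted p = 0.0417), the last named after its values were seen. Several of them, Dusp1 among them, are also induced by growth factors. At 6 h Dusp1 (1.20 ± 0.19, adjusted p = 0.00609) and Sgk1 were higher, and Per1 (-1.06 ± 0.23, adjusted p = 0.0163) and Ddit4 (-1.27 ± 0.32, adjusted p = 0.0297) were lower. Each direction held 22.2% of the 9, where 9.25% of all genes were called higher and 12.1% lower. Both Dusp1 calls held under all alternatives run. The 1 h calls of Per1, Mt2 and Klf9 were each lost without control replicate a, that of Per1 also without HGF 1 h replicate b, and that of Mt2 also without control replicate b. That of Klf9 was lost in 7 of 8 fits that leave out 1 array, with median scaling and without a detection filter. At 6 h the call of Per1 was lost without HGF 6 h replicate b or either control array, and that of Ddit4 without any single 6 h or control array.

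Around Glul, 2 of 8 measured genes of glutamine and glutamate metabolism fell at 6 h and 0 rose, and 0 were called at 1 h. These 2 are 25% of the 8, where 12.1% of all genes were called lower at 6 h. Slc38a2, a glutamine transporter of the cell membrane, fell by 1.16 ± 0.19 (limma adjusted p = 0.00654). Gpt2, a mitochondrial alanine transaminase that uses glutamate, fell by 1.14 ± 0.19 (adjusted p = 0.00705), and both calls held under all alternatives run. With the replicate block the amino acid transporter gene Slc7a5 was also called lower at 6 h (-0.60 ± 0.21, adjusted p = 0.0807 without the block and 0.0111 with it), and the transaminase gene Got1 higher at 24 h (0.75 ± 0.22, adjusted p = 0.148 and 0.0419). Around Fbxo32, 0 of 6 measured genes of SCF and muscle atrophy ubiquitin ligases were called at 1, 6 or 24 h, and with the block Fbxo21 was called lower at 1 h (-0.46 ± 0.13, adjusted p = 0.0932 without it and 0.0495 with it).

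At 24 h, where 0 genes of all were called, 1626 of 8183 genes had an unadjusted p under 0.05 in limma, and 429 were called with the replicate block. The p-values rest on 2 repeats of 1 cell line, and their number limits the precision of every change given. Mouse positions of the members in GRCm38.p6 are chr15:58175879-58214892 for Fbxo32, chr5:93267573-93276231 for Ccng2, chr6:129533192-129542331 for Gabarapl1, chr12:31926452-31950530 for Hbp1 and chr10:41810574-41908436 for Sesn1. Klhl24 lies at chr16:20097553-20129226, Depp1 at chr6:116650684-116652847, Tsc22d3 at chrX:140539528-140600522 and Glul at chr1:153899929-153909723.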

How the data were processed

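RNA of 8 cultures was measured on Illumina Mouse8 V2 arrays. The authors deposited a table of raw signal intensity per probe, neither background corrected nor normalized, with a detection p-value per probe and array, and a table of their normalized intensity. The submitters' processing notes name GenomeStudio 1.9.0, and for the normalization the method used was not given in the sources used here. Columns of the second table have medians of 129.8 to 129.9. The number of per-sample columns left unused was 0.

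Probes were named through the platform annotation (23978 with 1 symbol, 1719 with none, 0 symbols changed by a current gene table that matched 23962). Raw intensity was background corrected in limma 3.58.1 (R 4.3.3) by normexp from detection p-values, with an offset of 16. Quantile normalization and log2 followed, and the offset makes changes of dim genes smaller than they are. The 11325 probes detected by both arrays of some group (p under 0.05) were kept, and the probe of highest mean signal stood for a gene. One fit over 8 arrays without a block (4 residual degrees of freedom, 3 with it) gave fold changes, standard errors and adjusted p-values. The fit was tested on simulated data.

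The members and the pathway lists were chosen with earlier results of these data known. Named genes are the members with all their probes, the FoxO factors, the family relatives, up to 4 called genes from each list and time, taken by adjusted p, and the genes of highest correlation stated in the text. Genes outside this rule are marked as named after their values were seen. The pathway genes called only with the replicate block, and Fkbp5 and Nr3c1, were named after their values were seen as well. Family relatives without a measured probe are not named. The labels say that the experiment was done again to give replicates, and that a letter marks the same repeat is implied by them and not stated. Replicate a minus replicate b correlated at 0.194 to 0.443 between all pairs of groups, so the letter was also used as a block, and that fit is printed where a call differed or a count moved by over 1.5 times. The alternatives were the block, other background and scaling settings, the authors' normalized intensity, other detection filters, the mean of probes and leaving out each array.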

Additional observations from a re-analysis of the deposited data

How the results depend on the processing

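Of 846 member changes recomputed under alternatives, 760 stayed on their side of the threshold, 65 lost a call and 21 gained one. None of the called changes reversed, and 3 of the 760, not called in either fit, had the opposite sign. Of 1524 such changes of named pathway genes, 1426 stayed on their side, 29 of them not called and of opposite sign, 83 lost a call, 15 gained one and 0 reversed. With the replicate block the members called came to 6 at 1 h, 1 at 24 h, 9 at 6 h, 7 between 6 h and 24 h and 3 between 1 h and 24 h, and the other pathway genes called to 11 at 1 h and 3 at 24 h. Without background correction, and in the authors' normalized values, 6 members were called at 1 h and 1 at 24 h. Between 1 h and 24 h, 1 member was called with median scaling, without a detection filter, with detection p under 0.01 on all arrays and with the mean of probes. Leaving out 1 array gave 0 to 3 members at 1 h, 6 to 9 at 6 h, 2 to 6 between 1 h and 6 h, 3 to 6 between 6 h and 24 h and 0 to 2 between 1 h and 24 h, and 1 to 5 other pathway genes at 1 h and 8 to 20 at 6 h. A group left with 1 array is assumed to vary like the others. Median scaling moved the median of all genes to -0.16 at 6 h and -0.15 at 1 h, and gave 322 genes higher and 963 lower at 6 h, against 757 and 992. The cause of these differences between fits was not tested. The slide as a block was not run, since no header names the slide. Probes near background, such as Glul at 6 h, limit what can be read from a fold.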
